A study of Mus musculus with 5 samples.

Results

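Chemokines and chemokine receptors were followed in liver tumours of mice bred to lack the histone deacetylase Hdac3 in hepatocytes, and in control livers. Members were the genes whose single probe table symbol begins with Ccl, Cxcl, Cx3cl, Xcl, Ccr, Cxcr, Cx3cr, Xcr or Ackr followed by a digit, each represented by its brightest probe set over the arrays. This gave 56 members, 34 ligands and 22 receptors, of 19938 measured genes. The 3 tumour samples were biological replicates of tumour tissue with the genotype Hdac3FL/-AlbCre+, in which a floxed allele is paired with a null allele. The 2 control samples were normal liver with the genotype Hdac3FL/+AlbCre+, and the mice were males about 10 months old kept on regular food. AlbCre, carried by both groups, is driven by the albumin promoter, whose activity is that of hepatocytes and not of leukocytes. Control hepatocytes thus also lose their floxed allele and keep a single wild-type copy. Null genotype and tumour tissue coincide in these samples, and their effects cannot be told apart. Each sample was whole tissue on 1 array, so fewer cells of a type and less RNA per cell cannot be told apart either.

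Chemokines are small secreted or membrane-anchored proteins that guide leukocytes, and they are classed by the spacing of their cysteines. Most of their receptors signal through inhibitory G proteins, whereas the atypical receptors (Ackr genes) take up chemokines without that signal and so shape their gradients. In liver, hepatocytes, Kupffer cells, sinusoidal endothelium and stellate cells all release chemokines, which draw monocytes, T cells and natural killer cells out of the sinusoidal blood.

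Values are the deposited log2 levels, and differences are tumour mean minus control mean in log2 units with the standard error (SE) of a limma fit over all genes. A gene is said to have risen or fallen where its adjusted p was under 0.05. Over all genes 2106 of 19938 passed, 1117 risen and 989 fallen (53.0% of the calls were rises, 47.1% with equal array medians), and the median difference was −0.02. Hdac3 read 6.78, 6.57 and 6.65 in tumours 1, 2 and 3, against 8.21 and 8.37 in controls 1 and 2 (difference −1.62, adjusted p = 0.00298). The position of its probes relative to the deleted part was not analysed here. Array medians lay between 5.66 and 5.77. Tumours 1 and 3 had the lowest correlation between replicate arrays (r = 0.964 across genes, which are not independent replicates). The word dim is used for a group mean under the arrays' lower quartile (4.31 in tumours, 4.34 in controls). Of 10 hepatocyte markers, 0 were dim in either group, so the defining genes of liver were present in both, and 2 fell. Tumour means were lower for 8 of the 10, against 10553 of 19938 genes. Their summed level, on the linear scale, was 62640.5, 57110.1 and 51547.9 in tumours 1, 2 and 3 and 68065.3 and 69491.3 in the controls.

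Of the 56 chemokine and receptor genes, 6 rose and 2 fell in the tumours. This is 14.3% of the family against 10.6% of all genes tested, a share not far from the background, so the family as a whole was not marked by its number of calls. Ligands Cxcl16, Ccl6 and Cx3cl1 and receptors Cxcr4, Ccr3 and Cx3cr1 rose (5.6% of all genes rose), while the ligand Cxcl12 and the scavenging receptor Ackr4 fell (4.96% of all genes fell). Ligands had 4 of 34 members called and receptors 4 of 22. Median differences were 0.22 for the ligands and 0.19 for the receptors, beside −0.02 for all genes. The 8 calls became 1 without control 1 or control 2 and 13 without tumour 3, and the receptor median became 0.0816 without tumour 3 and 0.29 without control 2. The ligand median became 0.15 without tumour 3.

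Direction and spread set the family further from the other genes than its calls did, as a description without a test. The tumour mean lay above the control mean for 23 of 34 ligands and 18 of 22 receptors, in all 73.2% of members against 47.1% of all genes. With equal array medians, 20 ligands and 16 receptors lay above. Differences of at least 1 log2 unit in size were seen for 10 ligands and 4 receptors, 25% of members against 9.49% of all genes, and 13 of these 14 were higher in the tumours. No overlap between the groups was seen for 15 ligands and 9 receptors, 42.9% of members, close to the 44.2% of all genes. Of these 24 members 19 were higher in the tumours (21.1% of all genes were separate and higher). Separation together with a difference of at least 1 was found for 13 members and for 9.25% of all genes. Receptors were dim more often: both group means lay under the lower quartile for 6 receptors (Ccr4, Ccr8, Ccr1l1, Cxcr2, Cxcr5 and Cxcr6) and 2 ligands (Ccl28 and Cxcl15). Levels of those 8 genes were not shown to be above background.

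**Figure D1:**
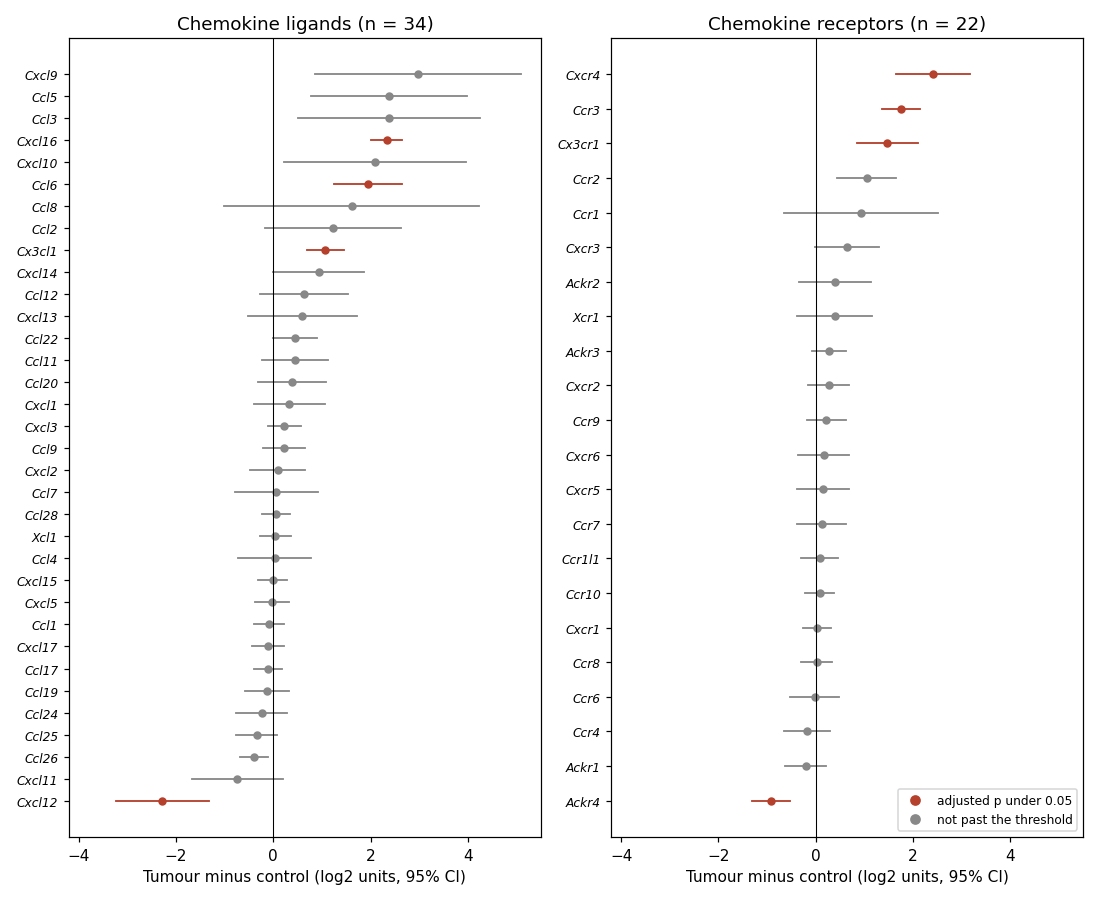
Tumour minus control differences in log2 units (x axis) of the 34 ligands and 22 receptors, with 95% confidence intervals of the limma fit; red marks adjusted p under 0.05. Differences run from −2.28 to 2.97 among ligands and from −0.93 to 2.40 among receptors, and several large ligand differences (Cxcl9, Ccl5, Ccl3, Cxcl10) have wide intervals and no call.

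Among ligands, the 3 that rose have different roles. Cxcl16 is a membrane-anchored chemokine that also takes up oxidised lipoproteins, and its shed form attracts Cxcr6-bearing T and natural killer T cells. It read 8.55, 8.75 and 8.72 in tumours 1, 2 and 3, against 6.38 and 6.31 in the controls. The tumours lay close together and far above both controls, a 5.02-fold difference (95% confidence interval 4.04 to 6.24; limma adjusted p = 0.000933). Of the 8 calls in the family, that of Cxcl16 alone was kept whichever array was left out (highest adjusted p 0.0383).

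Ccl6 is a rodent chemokine of macrophages and other myeloid cells that acts on Ccr1. Its values were 8.67, 7.72 and 8.06 in tumours 1, 2 and 3 and 6.09 and 6.32 in the controls. Tumour 1 was highest and the groups did not overlap (difference 1.95, SE 0.28, adjusted p = 0.0136). Cx3cl1, or fractalkine, is an adhesive transmembrane chemokine of endothelium and epithelium. It stood at 6.50, 6.40 and 6.76 in the tumours, against 5.43 and 5.53 in the controls, again without overlap (difference 1.07, SE 0.15, adjusted p = 0.0127). Both calls were lost without control 1 (adjusted p = 0.148 and 0.138) or control 2 (0.131 and 0.130).

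Cxcl12, which stromal and sinusoidal endothelial cells release to retain Cxcr4-bearing cells, was the member that fell furthest. It read 7.54, 7.10 and 6.18 in tumours 1, 2 and 3, against 9.09 and 9.35 in the controls. Even the highest tumour lay over 1 log2 unit below both controls, and tumour 3 was lowest (difference −2.28, SE 0.39, adjusted p = 0.0210). The call was lost without control 1 (0.159), control 2 (0.198) or tumour 2 (0.0553). Markers of liver endothelium also varied among the tumours: their summed level, on the linear scale, was 3931, 1863 and 964 in tumours 1, 2 and 3 and 2443 and 2615 in the controls. Of these 10 markers 0 rose and 0 fell, and 0 were dim in both groups. The markers did not run one way: Pecam1 lay above both controls in every tumour (difference 1.27, adjusted p = 0.0522), and Oit3, of sinusoidal endothelium, read 7.68, 6.48 and 5.52 in tumours 1, 2 and 3, against 8.41 and 8.08 in the controls (−1.68, adjusted p = 0.142). Clec4g, another sinusoidal marker, read 9.46 in tumour 1 and 4.67 in tumour 3, with tumour 2 between them, against 9.13 and 9.53 in the controls. Tumour means were higher for 5 of the 10 endothelial markers, among them Lyve1 (0.93), Cdh5 (0.64), Vwf (0.53) and Stab1 (0.15), and lower for 5. The summed level of 10 stellate cell and fibroblast markers was 3880, 2213 and 1080 in tumours 1, 2 and 3 and 2141 and 2118 in the controls, with 0 dim in both groups. Of these, Acta2 rose (2.44) and 0 fell. Reln, a stellate cell marker, read 7.97, 7.33 and 4.93 in the tumours, against 8.47 and 8.30 in the controls (−1.64, adjusted p = 0.310). Col1a1 (1.21), Col1a2 (0.90), Col3a1 (0.81) and Pdgfrb (1.26), not called, lay above both controls in every tumour. In that list 6 markers had higher and 4 had lower tumour means. The part of endothelial and stromal cells in the Cxcl12 difference was not tested.

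Among receptors, Cxcr4, the receptor of Cxcl12 on most leukocytes, rose furthest. It stood at 8.56, 7.64 and 8.50 in tumours 1, 2 and 3, against 6.01 and 5.66 in the controls. Tumours and controls were far apart (difference 2.40, SE 0.31, 5.28-fold, adjusted p = 0.00997). Cxcl12 and Cxcr4 thus moved in opposite directions in the same tumours.

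Ccr3, the eotaxin receptor of eosinophils, rose to 6.16, 6.29 and 6.56 in tumours 1, 2 and 3, against 4.64 and 4.53 in the controls (difference 1.75, SE 0.16, adjusted p = 0.00378). Its spread within each group was small, and the control values lay near the lower quartile of the arrays. Cx3cr1, the fractalkine receptor of monocytes and macrophages, read 7.30, 7.46 and 8.10 in tumours 1, 2 and 3, against 6.23 and 6.06 in the controls (difference 1.47, SE 0.26, adjusted p = 0.0224). Neither receptor had overlapping groups. Without control 1 or control 2, Cxcr4 (adjusted p = 0.0994 and 0.129), Ccr3 (0.0630 and 0.0760) and Cx3cr1 (0.161 and 0.202) were no longer called, and Cx3cr1 was also lost without tumour 2 (0.0516).

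Ackr4, a scavenger of Ccl19, Ccl21 and Ccl25, fell to 4.59, 4.71 and 4.29 in tumours 1, 2 and 3, against 5.45 and 5.47 in the controls (difference −0.93, SE 0.16, adjusted p = 0.0219). The tumour values lay near the lower quartile of the arrays, and the call was lost without control 1 (0.173) or control 2 (0.191). The other 3 atypical receptors were not called. Ackr3, which binds Cxcl12, stood at a difference of 0.27, Ackr1, a chemokine carrier of venules and red cells, at −0.21, and Ackr2, a scavenger of inflammatory CC chemokines, at 0.39. Ackr2 was 0.98 above the control mean in tumour 1 and −0.03 from it in tumour 3.

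A further 6 members had groups that did not overlap and differences of at least 1, but did not pass the test. These were the ligands Cxcl9, Ccl5, Ccl3, Cxcl10 and Ccl2 and the receptor Ccr2, and their differences were 1.04 to 2.97. The 5 ligands were highest in tumour 3, and the spread among tumours was wide. Cxcl9, an interferon-induced attractant of Cxcr3-bearing T cells, read 7.87, 9.25 and 11.10 in tumours 1, 2 and 3, against 6.52 and 6.36 in the controls (difference 2.97, 95% confidence interval 0.85 to 5.09, adjusted p = 0.0900). Cxcl10, a second interferon-induced ligand of Cxcr3, read 6.93, 7.57 and 9.66 in the tumours and 5.81 and 6.11 in the controls (difference 2.09, adjusted p = 0.158).

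Ccl5, made by T and natural killer cells among others, stood at 8.06, 8.31 and 10.25 in tumours 1, 2 and 3, against 6.24 and 6.73 in the controls (difference 2.38, adjusted p = 0.0775). For Ccl3, a product of activated macrophages, the values were 5.90, 6.28 and 8.49 in the tumours and 4.22 and 4.80 in the controls (difference 2.38, adjusted p = 0.115). In both genes the lowest tumour was over 1 log2 unit above the higher control. Ccl2, the main attractant of Ccr2-bearing monocytes, read 5.32, 6.16 and 7.37 in the tumours, against 4.84 and 5.27 in the controls, so that tumour 1 hardly left the control range (difference 1.23, adjusted p = 0.253). Ccr2 itself stood at 4.65, 5.17 and 5.24 in the tumours and at 4.23 and 3.73 in the controls, whose mean was dim (difference 1.04, adjusted p = 0.0502, just above the threshold). Ccr2 was called in 4 of 11 alternative settings. With tumour 3 left out, Cxcl9, Cxcl10, Ccl5 and Ccl3 passed as higher (adjusted p = 0.0299, 0.0236, 0.00575 and 0.0119) and Cxcl11 as lower, which made 9 called ligands in place of 4.

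**Figure D2:**
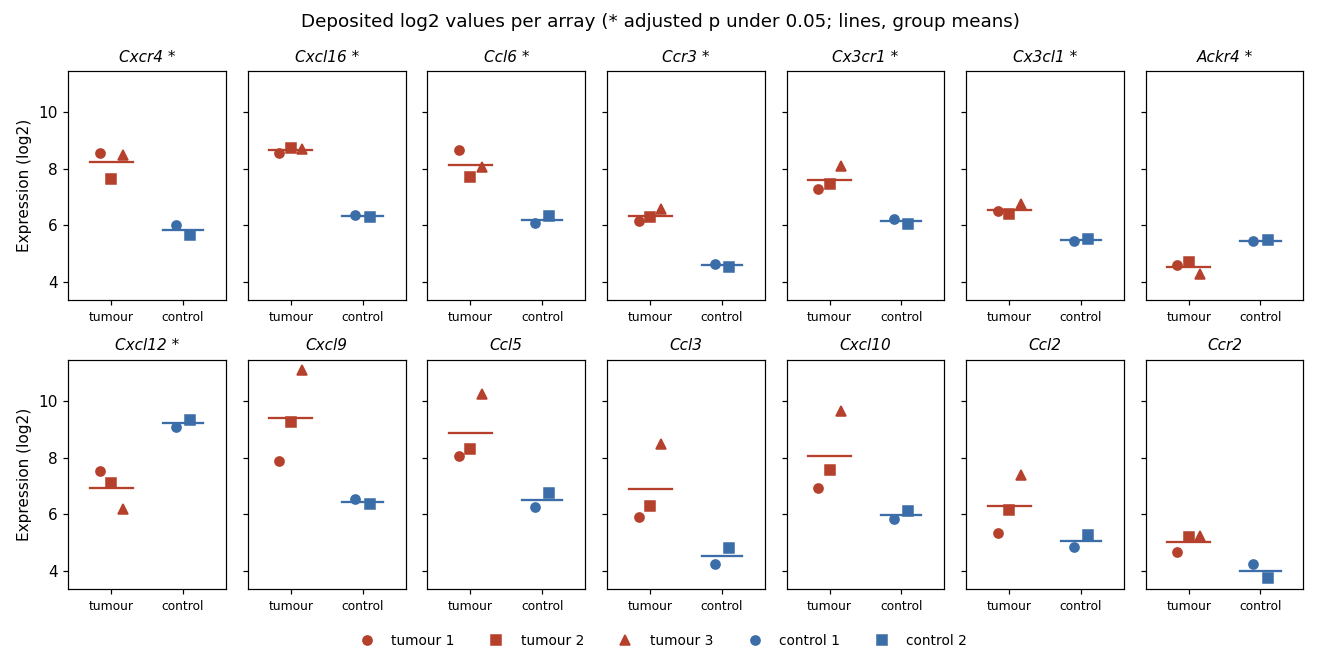
Deposited log2 values (y axis) of the 8 called members (asterisk) and of the 6 uncalled members with separate groups and differences of at least 1, with red symbols for tumours 1, 2 and 3, blue symbols for controls 1 and 2 and lines at group means. Cxcl16, Ccr3 and Cx3cl1 have tight tumour values, whereas Cxcl9, Ccl5, Ccl3 and Cxcl10 have tumour 3 far above tumours 1 and 2.

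Differences among the tumours were wider in this family than in most genes. The values of the 3 tumours spanned at least 1 log2 unit for 12 of 34 ligands and 3 of 22 receptors (Xcr1, Ackr2 and Ccr1), 26.8% of members against 7.78% of all genes. Tumour 3 was not the highest tumour more often than elsewhere: this held for 46.4% of members and 46.6% of all genes. Ccl8, a monocyte attractant, read 3.72, 4.89 and 7.64 in tumours 1, 2 and 3, against 3.84 and 3.76 in the controls, so tumour 3 stood 3.84 and tumour 2 1.09 above a dim control mean, and tumour 1 lay below both controls. Ccr1 was also highest in tumour 3, at 0.41, 0.08 and 2.31 above the control mean in tumours 1, 2 and 3. Other members were highest in tumour 1. Cxcl13, the B cell attractant, stood 1.48 above the control mean in tumour 1 and −0.19 from it in tumour 2, and Cxcl14, an epithelial chemokine, stood 1.56, 0.19 and 1.05 above it in tumours 1, 2 and 3.

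Tumour 3, in which Cxcl9, Cxcl10 and Ccl5 were highest, was also the highest tumour for 9 of 10 T cell markers and 7 of 8 natural killer cell markers (46.6% of all genes). The exceptions were Icos and Klrk1. Other lists shared this: tumour 3 was highest for 9 of 15 macrophage and Kupffer cell markers and 22 of 28 genes of receptor signalling. It was highest for 2 of 11 neutrophil markers and for 0 of 10 liver endothelial markers. The summed linear level of the T cell markers was 419, 402 and 891 in tumours 1, 2 and 3 and 339 and 332 in the controls. Their 0 calls in either direction leave this as a description. Cd3g, part of the T cell receptor complex and the largest difference of the list, read 5.06, 5.61 and 8.06 in the tumours, against 3.88 and 4.18 in the controls. Cd3e (0.36) and Cd3d (0.32) of the same complex differed much less, and Zap70 (−0.19) and Foxp3 (−0.15) had lower tumour means. The sum of the natural killer cell markers was 218, 215 and 617 in the tumours and 185 and 195 in the controls, with 0 called. The largest differences of that list were those of Nkg7 (1.52) and Eomes (0.95), and 2 of its 8 markers had lower tumour means. Ncr1, Klrb1c, Klrk1 and Gzma of that list were dim in both groups. Irf1, an interferon-induced transcription factor, was also highest in tumour 3, with 7.99, 8.22 and 9.57 in the tumours and 7.46 and 7.13 in the controls (difference 1.30, adjusted p = 0.156). Ifng itself was highest in tumour 3 as well, at 4.55, 4.61 and 5.19 in the tumours and 4.68 and 4.61 in the controls (difference 0.14, adjusted p = 0.770). The part of T cells, natural killer cells and macrophages in the ligand differences was not tested.

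Some macrophage markers rose beside these ligands and receptors, and others did not. Of 15 macrophage and Kupffer cell markers 7 rose and 1 fell (over all genes 5.6% rose and 4.96% fell), with 0 dim in both groups. The complement gene C1qc (3.33) and Cd68 (3.02) were among those that rose, and the scavenger receptor Cd163 fell (−2.20). The other 7 were not called. Kupffer cell markers differed among the tumours: Clec4f read 9.28, 6.37 and 5.03 in tumours 1, 2 and 3, against 7.51 and 7.87 in the controls, and Vsig4 read 9.84, 7.34 and 4.55 in the tumours, against 7.07 and 7.82 in the controls. The summed linear level of the list was 9071, 5381 and 9840 in tumours 1, 2 and 3 and 1644 and 2186 in the controls. Of 5 monocyte markers Lyz2 rose (2.26) and 4 were not called, Chil3 was dim in both groups, and the sum was 4532 to 5833 in tumours and 3892 to 3991 in controls. Fn1 made up most of that sum, at 12.15, 11.88 and 12.19 in tumours 1, 2 and 3, against 11.84 and 11.86 in the controls. The sum is therefore no measure of monocytes. Of 8 dendritic cell markers Itgax rose (2.56), 0 were dim in both groups, and the sum was 393 to 610 in tumours and 302 to 319 in controls. Itgax weighed most on the difference in that sum, at 6.78, 7.24 and 8.24 in tumours 1, 2 and 3, against 4.83 and 4.88 in the controls. The median difference of the 8 markers was 0.06, and 3 had lower tumour means, among them Zbtb46 (−0.33), below both controls in every tumour. That sum is therefore no measure of dendritic cells. The part of macrophages, monocytes and dendritic cells in the differences of Ccl6, Cxcl16, Cxcr4, Cx3cr1 and Ccr2 was not tested.

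Neutrophil attractants did not pass the test. Cxcl1, Cxcl2, Cxcl3, Cxcl5 and Cxcl15, CXC ligands that attract neutrophils, had differences between −0.02 and 0.33. Of these 5 genes 0 were called, against 10.6% of all genes, and so few genes cannot set 0 apart from that share. Cxcl1 read 7.47, 6.66 and 7.61 in tumours 1, 2 and 3, against 6.97 and 6.86 in the controls (difference 0.33, 95% confidence interval −0.39 to 1.06). Cxcr2 was dim in both groups (difference 0.27, 95% confidence interval −0.16 to 0.69) and Cxcr1 stood at 0.02 (−0.27 to 0.31). Of 11 neutrophil markers 0 were called (10.6% of all genes were), again too few genes to tell from that share. Mmp8, Ly6g and Trem1 were dim in both groups, and the summed linear level was 273 to 359 in tumours and 262 to 278 in controls.

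Ligands were set beside their known receptors. Of 33 ligand and receptor pairs with both members measured, 2 had both called, 3 the ligand, 3 the receptor and 25 neither. Cx3cl1 and Cx3cr1 both rose, and Cxcl12 fell where Cxcr4 rose. The 3 pairs with a called ligand were Ccl6 with Ccr1 (receptor difference 0.93, adjusted p = 0.448), Cxcl16 with Cxcr6 (0.16, adjusted p = 0.719, dim in both groups) and Cxcl12 with Ackr3. The 3 pairs with a called receptor were Ccr3 with the eotaxins Ccl11 (0.45) and Ccl24 (−0.24) and with Ccl28 (0.06), a mucosal chemokine. Pairs without a call included some with both members higher in the tumours, among them Ccl2 (1.23) with Ccr2 (1.04), Ccl3 and Ccl5 (2.38 each) with Ccr1 (0.93), and Cxcl9 (2.97) with Cxcr3 (0.64).

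Receptors of lymphoid homing and their ligands did not pass the test. Ccr7, which guides T and dendritic cells to lymph nodes, stood at 0.12 and its ligand Ccl19 at −0.13. Ccr6 stood at −0.02 and Ccl20 at 0.38, Ccr9 at 0.21 and Ccl25 at −0.34, Ccr10 at 0.08, and Cxcr5 at 0.14 with Cxcl13 at 0.60. Ccr4 (−0.18) and its ligands Ccl17 (−0.11) and Ccl22 (0.45), and Ccr8 (0.02) with Ccl1 (−0.09) and Ccl8 (1.62), did not pass either. Cxcr3, the receptor of Cxcl9 and Cxcl10, read 5.74, 5.89 and 6.59 in tumours 1, 2 and 3, against 5.39 and 5.48 in the controls (difference 0.64, adjusted p = 0.205). Its groups did not overlap, and it was highest in tumour 3, as were Cxcl9 and Cxcl10. Xcr1, the receptor of cross-presenting dendritic cells, read 6.05 in tumour 3 and 5.16 and 5.04 in tumours 1 and 2, against 5.06 and 5.00 in the controls, while its ligand Xcl1 stood at 0.04.

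**Figure D3:**
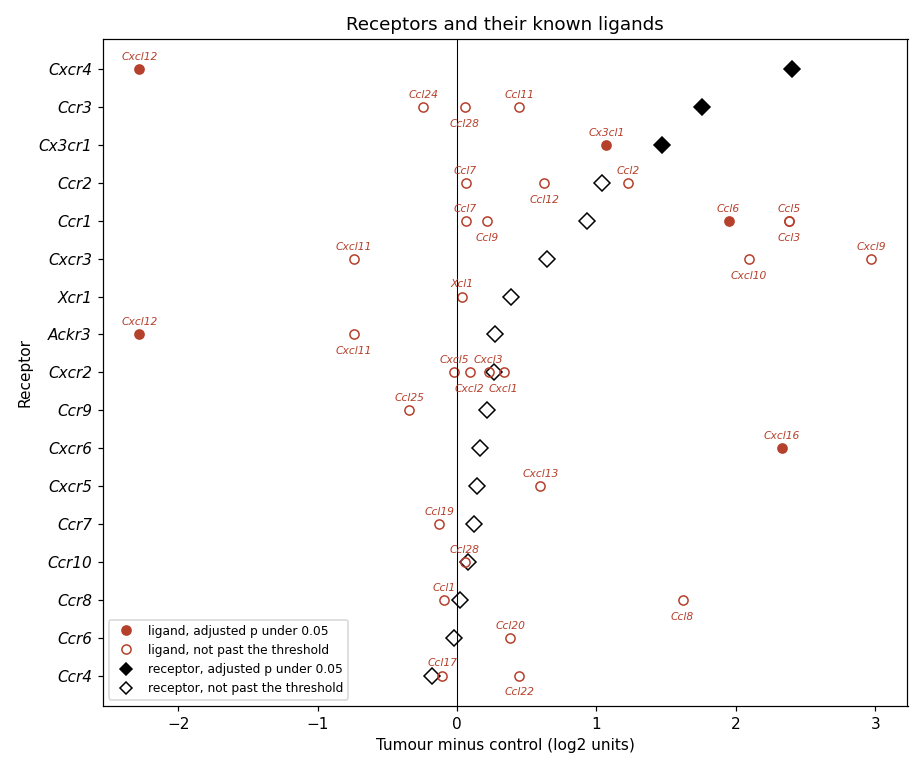
Tumour minus control differences in log2 units (x axis) of 17 receptors (diamonds) and of their known ligands (red circles, labelled), filled where adjusted p was under 0.05. Cxcl12 lies at −2.28 on the row of Cxcr4 at 2.40, and the ligands on the row of Cxcr2 lie between −0.02 and 0.33.

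Many of these genes sit in runs of neighbours, which the GRCm38.p6 gene table was used to find, and neighbours often differed. Runs were members with at most 2 other listed genes between them. Of the run Ccl5, Ccl9, Ccl6, Ccl3 and Ccl4, Ccl6 was called, Ccl5 and Ccl3 stood at 2.38 each, and Ccl9 (0.22) and Ccl4 (0.03) near 0. Cxcl9 and Cxcl10 lie beside Cxcl11, which is listed there as a transcribed pseudogene and stood at −0.74 (adjusted p = 0.307). Cx3cl1 rose between Ccl22 (0.45) and Ccl17 (−0.11). In the run of 7 receptors Ccr9, Cxcr6, Xcr1, Ccr1, Ccr1l1, Ccr3 and Ccr2, Ccr3 was called and differences ran from 0.08 to 1.75. The Ccl2 run held 6 genes, of which 0 were called, with differences from −0.09 for Ccl1 to 1.62 for Ccl8. Neighbours in these runs are similar in sequence (Ccl3 and Ccl4, Ccl2, Ccl7 and Ccl12, Ccr1, Ccr1l1 and Ccr3, Cxcl1 and Cxcl2), so their probe sets could share signal, and single values there are uncertain.

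**Figure D4:**
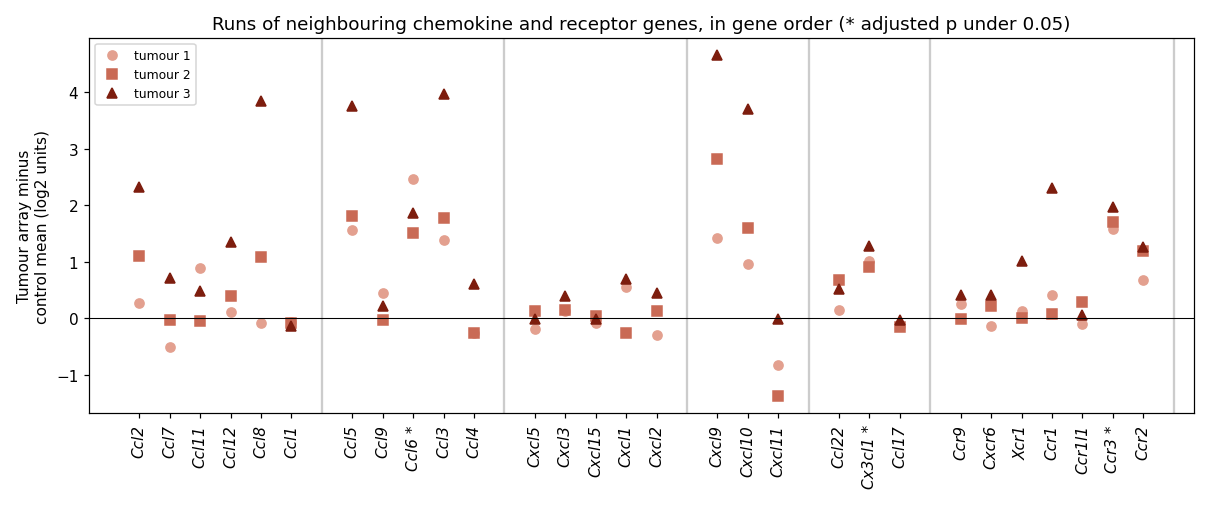
Difference of each tumour from the control mean in log2 units (y axis) for runs of at least 3 neighbouring members in gene order, with circles, squares and triangles for tumours 1, 2 and 3. Tumour 3 stands out for Ccl2, Ccl8, Ccl5, Ccl3, Cxcl9, Cxcl10 and Ccr1, while the run of Cxcl1 and Cxcl2 stays between −0.30 and 0.70.

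Sequence upstream of the start is shown for 5 members, to set their levels beside the motifs found there. The 250 bases before a start listed by RefSeq (build GRCm38.p6) are shown, written 5′ to 3′ on the gene's strand, for Cxcr4 (chr1:128592300-128592549, minus strand), Cxcl12 (chr6:117168285-117168534, plus strand), Ccr3 (chr9:124021721-124021970, plus strand), Cxcl9 (chr5:92328080-92328329, minus strand) and Cxcl10 (chr5:92348890-92349139, minus strand). Cxcr4 had the largest called rise of the family and Cxcl12 the largest fall, and Ccr3, Cxcl9 and Cxcl10 were added after their values were seen. The Ccr3 start used lies inside the span that the gene table lists for Ccr3, so its window covers sequence within the gene. Capitals mark matches to the kappaB consensus, the interferon-response motif (TTTC, any 2 bases, TTTC), the STAT motif TTCNNNGAA, the AP-1 motif TGANTCA (each on both strands) and TATAAA on the sense strand.
Cxcr4: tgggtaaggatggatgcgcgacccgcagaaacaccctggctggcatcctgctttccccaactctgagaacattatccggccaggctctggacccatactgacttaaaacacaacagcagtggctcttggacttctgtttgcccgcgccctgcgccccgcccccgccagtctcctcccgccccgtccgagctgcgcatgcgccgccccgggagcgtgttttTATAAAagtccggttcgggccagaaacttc
Cxcl12: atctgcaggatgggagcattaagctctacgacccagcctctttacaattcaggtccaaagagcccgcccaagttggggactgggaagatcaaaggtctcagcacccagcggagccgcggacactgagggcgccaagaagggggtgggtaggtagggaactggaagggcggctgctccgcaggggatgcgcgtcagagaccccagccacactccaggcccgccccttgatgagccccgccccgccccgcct
Ccr3: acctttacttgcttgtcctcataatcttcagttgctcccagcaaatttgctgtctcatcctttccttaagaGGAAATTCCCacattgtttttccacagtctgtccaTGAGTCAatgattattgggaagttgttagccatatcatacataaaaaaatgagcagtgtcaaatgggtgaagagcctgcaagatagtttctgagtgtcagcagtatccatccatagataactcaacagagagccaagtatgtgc
Cxcl9: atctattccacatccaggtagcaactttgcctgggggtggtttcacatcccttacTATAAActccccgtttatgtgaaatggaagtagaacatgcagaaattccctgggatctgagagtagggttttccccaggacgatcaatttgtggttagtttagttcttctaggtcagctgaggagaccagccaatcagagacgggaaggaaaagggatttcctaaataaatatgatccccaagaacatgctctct
Cxcl10: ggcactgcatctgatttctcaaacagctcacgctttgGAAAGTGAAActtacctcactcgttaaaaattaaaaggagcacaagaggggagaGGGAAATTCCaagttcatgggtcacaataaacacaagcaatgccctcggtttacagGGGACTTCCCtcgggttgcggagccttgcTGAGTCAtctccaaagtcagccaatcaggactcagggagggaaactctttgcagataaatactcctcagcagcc

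Cxcr4 had TATAAA 30 to 25 bases before its start and no other match, Cxcl12 had none of the 5 motifs, and Ccr3 had a kappaB match 179 to 170 bases and an AP-1 match 144 to 138 bases before the start. Cxcl10 had 2 kappaB matches, 1 interferon-response match and 1 AP-1 match, whereas Cxcl9 had TATAAA 195 to 190 bases before its start and no other match. A match is a description of letters, and the absence of one says nothing about a factor.

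Across the family, 44 windows of 42 members were in the RefSeq promoter table. The kappaB consensus, bound by NF-kB, stood in 9 of them (20.5%), against 3.90% of 32851 windows of all genes. TATAAA stood in 12 member windows (27.3%, against 7.59%), the interferon-response motif in 3 (6.82%, against 2.98%), TTCNNNGAA in 4 (9.09%, against 7.02%) and TGANTCA in 4 (9.09%, against 6.75%). The 6 ligands with a kappaB match were Ccl9, Ccl20, Cxcl1, Cxcl2, Cxcl3 and Cxcl10, and the 3 receptors were Ccr3, which rose, Ccr6 and Ackr2. Of the 6 ligands 0 were called, against 4 of all 34 ligands and 10.6% of all genes, and so few genes cannot be told from those shares. Cxcl10 among them had separate groups and a difference of 2.09.

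Genes that act up- and downstream of the family were set beside it. Of 28 genes of receptor signalling and migration 9 rose and 0 fell (over all genes 5.6% rose and 4.96% fell). The tumour mean lay above the control mean for 27 of them (47.1% of all genes), with a median difference of 0.94 against −0.02 for all genes. Elmo1 (1.49), which links receptors to Rac, Gnai2 (0.87), the inhibitory G protein of chemokine receptors, and the adhesion subunits Itga4 (2.37) and Itgb2 (2.35) had the smallest p. Most of these genes are expressed in leukocytes. Of the 15 macrophage and Kupffer cell markers 7 rose (46.7%, beside 32.1% of the signalling genes), 1 fell and 7 were not called. The part of leukocytes in these differences was not tested. Of 18 cytokines and regulators of the signals that induce chemokines 4 rose (5.6% of all genes rose) and 0 fell. The 4 were Nfkb2 (1.11), Tgfb1 (1.66), Tnfaip3 (0.78), a feedback inhibitor of NF-kB, and the cytokine Il1b (1.49). Il1b read 6.19, 6.25 and 6.92 in tumours 1, 2 and 3, against 5.22 and 4.71 in the controls. Tnf stood at −0.01.

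Proteases that cut or shed chemokines rose in 3 of 10 cases (5.6% of all genes rose), and 0 fell. The macrophage elastase Mmp12 read 9.60, 9.63 and 9.75 in tumours 1, 2 and 3, against 5.19 and 5.06 in the controls (difference 4.54, SE 0.12). Adam10, which sheds Cxcl16 and Cx3cl1 from the membrane, rose by 0.80, and the membrane protease Mmp14 by 1.37. Dpp4, which trims Cxcl10 and Cxcl12, was not called and read 8.43, 8.03 and 6.65 in tumours 1, 2 and 3, against 9.49 and 9.81 in the controls (difference −1.94, adjusted p = 0.0679). Among 8 other chemoattractants and receptors, the complement receptor C3ar1 (2.24) and the cytokine Mif (0.77) rose. Chemokine relatives whose symbols lie outside the naming pattern were not called: Pf4 (0.61) and Ppbp (−1.36), both platelet chemokines, the atypical receptor Ccrl2 (0.18), Cklf (0.55) and Pitpnm3 (−0.05).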

How the data were processed

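RNA of 3 Hdac3-null liver tumours and 2 control livers was hybridised to Affymetrix arrays after labelling with the maker's WT Sense kit, per the labels' protocols. The authors deposited log2 expression values, 1 for each probe set on each array. GCOS and RMA appear, without version or role, among tools of the submitters' processing notes. As background, RMA normalises arrays by quantiles, and low or very large differences come out reduced. The build behind the deposited values is named by no file or label. GRCm38.p6 is the build of the RefSeq tables, which gave gene order, promoter windows and names.

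Of 28853 probe sets, 21789 had 1 symbol in the platform's probe table, 1621 had several and 5443 had none, and the last 2 kinds were left out. Entrez identifiers of all 56 members matched GRCm38.p6, with 0 symbols updated. Columns of other samples numbered 0. No filter on dim genes was used, so every member was tested. The brightest probe set stood for the 999 genes with several.

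Differences were fitted with limma 3.58.1 in R 4.3.3 (lmFit, eBayes, 3 residual and 2.98 prior degrees of freedom, two-sided, Benjamini-Hochberg over all genes). An exact permutation test of 3 against 2 arrays cannot go below 0.1. On simulated arrays with 200 of 19938 genes changed, 56.4% of changes by 1 and 96.2% of changes by 2 log2 units were recovered, and 6.47% of calls were false. The simulated noise was normal, with 1 variance per gene shared by both groups, and all changes were upward. Members such as Cxcl9 (tumour standard deviation 1.62, gap between controls 0.17) differ from that setting, so these shares do not describe them. The number of arrays limits the precision.

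Named were called members, uncalled members without overlap and with differences of at least 1, the partners in the pair list, and up to 4 called genes of each other list with the smallest p. Other members and genes named, such as Ccl8, Ccr1, Cxcl13, Cxcl14, Clec4g, Oit3, Pecam1, Reln, Clec4f, Vsig4, Dpp4, Cd3g, Irf1, Ifng and Tnf, were chosen after their values were seen. Members and lists were chosen with earlier results of these data known. Alternatives were repeated quantile normalisation, a common median, a filter on dim genes, the mean of probe sets, a variance trend, array weights, a replicate block and leaving out each array. Python 3.11.15, pandas 2.3.3 and matplotlib 3.10.9 were used.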

Additional observations from a re-analysis of the deposited data

How the results depend on the processing

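Settings that kept all 5 arrays gave 7 to 12 called members, against 8 in the main fit. The 7 came without the dimmest 40% of genes and the 12 with array weights. Ccr2 was called after repeated quantile normalisation, with the variance trend and with array weights. The all-gene count rose to 3252 and the ligand count to 7 with array weights, which added Cxcl9, Ccl5 and Ccl3. Without the dimmest 40% of genes, Ackr4 and Ccr2 were not tested, and the median over the 7 receptors left was 0.64. Leaving out 1 array in turn gave 108 to 2719 calls over all genes, 1 to 13 in the family, 1 to 9 among ligands and 0 to 5 among receptors, with median differences of 0.15 to 0.30 for ligands and 0.0816 to 0.29 for receptors. The family counts of 1 came without control 1 or control 2, when a single control with the spread of the tumours assumed for it was left and Cxcl16 alone was called, and the count of 13 came without tumour 3. Over all genes 129 and 108 passed without control 1 and control 2, and 1266 without tumour 2. With the replicate number as a replicate block, 13 members and 9 ligands were called and the receptor median was 0.0816. Tumour 3 has no control of its number, so the block drops it. Samples of the same number did not deviate together (r = 0.00388 and −0.0129), so the numbers were not taken as pairs. The cause of these shifts was not tested. The 14 named members kept their direction in every setting run on them.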

Other observations

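Probe sets that name several copies of Ccl21 or Ccl27 carry no single symbol and were in no count. The 4 Ccl21 probe sets held identical values, 5.96, 5.53 and 5.31 in tumours 1, 2 and 3, against 5.53 and 5.55 in the controls, so the groups overlapped. Of the 3 Ccl27 probe sets, 2 held identical values, 5.70, 5.54 and 5.78 in the tumours and 6.18 and 6.26 in the controls. The third read 6.70, 6.46 and 6.89 in the tumours and 7.15 and 7.17 in the controls. Both Ccl27 signals lay below the controls in every tumour, with mean differences of −0.54 and −0.47 log2 units, and were not tested. Ccl27 attracts Ccr10-bearing T cells to skin. The 2 probe sets of Ccl25 disagreed in sign, at −0.34 for the brighter and 0.34 for the dimmer one, so its direction is unsettled. The 5 probe sets of Ccl19 ran from −0.13 to 0.07.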
